A study of Mus musculus with 20 samples.

Results

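The genes Hmgcs1, Mvk, Pmvk, Mvd, Idi1, Fdps and Fdft1 encode enzymes of the route from acetyl-CoA units through mevalonate to squalene, though not every enzyme of it. They were followed in the livers of mice fed a low-fat or a high-fat diet. The members were all probe sets whose platform annotation gave exactly 1 gene symbol from this list, which made 18 probe sets of 7 genes out of 45037 probe sets that are not controls. Hmgcs1 had 5 of these probe sets, Fdft1 had 4, Mvk, Mvd, Idi1 and Fdps had 2 each, and Pmvk had 1. Probe sets of 1 gene report on the same transcripts and are not replicates of each other. No filter on low values was applied, so all 18 were tested.

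All mice were male C57BL/6J, an inbred strain, labelled as 8 weeks old. The low-fat group (10 mice) received 10% of its energy as fat and the high-fat group (10 mice) received 45%, in each case for 4 weeks. All were fasted for 16 h before the liver was taken. Each liver was measured on its own Affymetrix array, and further groups on the high-fat diet that received maple syrup extract are not analysed here. The comparison asks how high-fat feeding changed the fasted liver, and whole liver RNA cannot tell fewer cells of a type from less RNA per cell.

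Early in cholesterol synthesis HMG-CoA synthase joins acetyl-CoA to acetoacetyl-CoA, on the way to mevalonate. Mevalonate is phosphorylated by mevalonate kinase and phosphomevalonate kinase, decarboxylated to isopentenyl diphosphate, isomerised, and joined into farnesyl diphosphate. Squalene synthase then commits farnesyl diphosphate to sterols, while other enzymes use isoprenoids for ubiquinone, dolichol and protein prenylation. In liver the genes of this route are known targets of SREBP-2, a transcription factor released from the endoplasmic reticulum when sterols are scarce.

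The deposited score has the level of a log2 intensity but a much smaller spread, with a median SD over the arrays of 1.17e-05, so a difference in score is not a log2 fold change. Sizes are therefore given as standardised differences, high fat minus low fat in units of the SD pooled over both diets, with a 95% noncentral t interval. Values of single mice are given in the same SD units, counted from the low-fat mean. The number of pairs with the high-fat animal on top, out of the 100 that can be formed across diets, needs only the order of the values. These measures rest on the score rising with the transcript, which was not tested. Tests are limma's, with p-values adjusted by the Benjamini-Hochberg method over all 45037 probe sets.

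The median score of an array lay between 6.56702 and 6.5672, and high-fat arrays had the higher medians (standardised difference 1.33, permutation p = 0.00964). For the 24 probe sets of poly-A spike-ins, RNAs added before labelling, the averaged standardised score ran from 0.154 to 0.976 in low-fat mice and from -2.44 to 1.16 in high-fat mice (standardised difference -0.89, permutation p = 0.0679). The hepatocyte markers Alb, Ttr, Apoa1, Cyp2e1, Cps1 and Serpina1c lay between 13.6 and 14.8 in the deposited score, and 0 of 6 passed. Their mean standardised score ran from -0.40 to 0.59 in low-fat and from -1.87 to -0.20 in high-fat mice. Ttr stood at -3.12 (adjusted p = 0.241), Serpina1c at -1.76 (adjusted p = 0.874) and Apoa1 at 1.35 (adjusted p = 0.727). Ttr did not pass although it differed by more SDs than any member. The lack of a call therefore does not show that these markers were unchanged. Of markers of other cell types, 0 of 6 of Kupffer cells and leukocytes, 0 of 6 of stellate cells, 0 of 6 of endothelial cells and 0 of 3 of adipocytes passed, while 1 of 5 of bile duct (Krt23, 2.09) and 1 of 3 of pancreatic acini (Cela1, 1.80) were higher and 1 of 4 of muscle (Mylpf, -1.99) was lower. The mean standardised score of the bile duct list ran from -1.01 to 0.37 in low-fat and from -0.57 to 0.83 in high-fat mice. The endothelial list ran from -1.10 to 0.71 and from -0.01 to 1.23, the stellate list from -1.30 to 1.48 and from -0.52 to 1.23, the Kupffer cell and leukocyte list from -0.76 to 1.46 and from -1.25 to 2.14, and the adipocyte list from -1.36 to 1.05 and from -0.68 to 1.12. The acinar list ran from -0.57 to 1.17 and from -0.87 to 1.15, and the muscle list from -0.88 to 1.00 and from -1.37 to 0.46. The part of array level, spike-ins and these markers in the results below was not tested, apart from the fits with array scaling or the spike-ins as a covariate.

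On the high-fat diet Idi1 rose in both of its probe sets and Mvd in 1 of 2, and 0 member probe sets fell on the deposited scale. After centring each array on its median 5 passed as lower (Hmgcs1 1441536_at, Mvk 1430619_a_at, Fdps 1438150_at, Fdft1 1438918_at and 1438919_x_at) and the Mvd call was lost. After quantile normalisation Fdft1 1438918_at passed as lower, while Idi1 was higher under both. The median difference of all probe sets was itself -1.29 and -0.41 SD after these scalings. Median centring made 38220 of all 45037 probe sets pass as lower and 396 as higher. Quantile normalisation made 3784 of 42361 pass as lower and 380 as higher. On the deposited scale, then, 3 of 18 member probe sets passed an adjusted p of 0.05, against 2.32% of all probe sets in either direction and 1.11% in the higher direction. Of these 3, both Idi1 probe sets stand for the same gene. Taking for each gene the probe set with the highest mean, 1 of 7 members passed (Idi1, 14.3%). Of the 18193 genes 3.00% passed by that choice, 1.49% as higher. The main probe set of Fdps missed the threshold narrowly (adjusted p = 0.0505). No probe set of Hmgcs1, Mvk, Pmvk or Fdft1 passed; their unadjusted limma p-values ran upwards from 0.128. Over the 18 probe sets 11 were higher and 7 lower, and of all probe sets 52.2% were higher. The median standardised difference was 0.25 against 0.04 over all probe sets. An unadjusted limma p under 0.05 was found in 5 of 18, as in 6817 of all 45037 probe sets. In 0 of 18 member probe sets did the diets separate completely, as they did in 0.18% of all probe sets. The plot of member values by mouse shows these probe sets side by side.

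**Figure D1:**
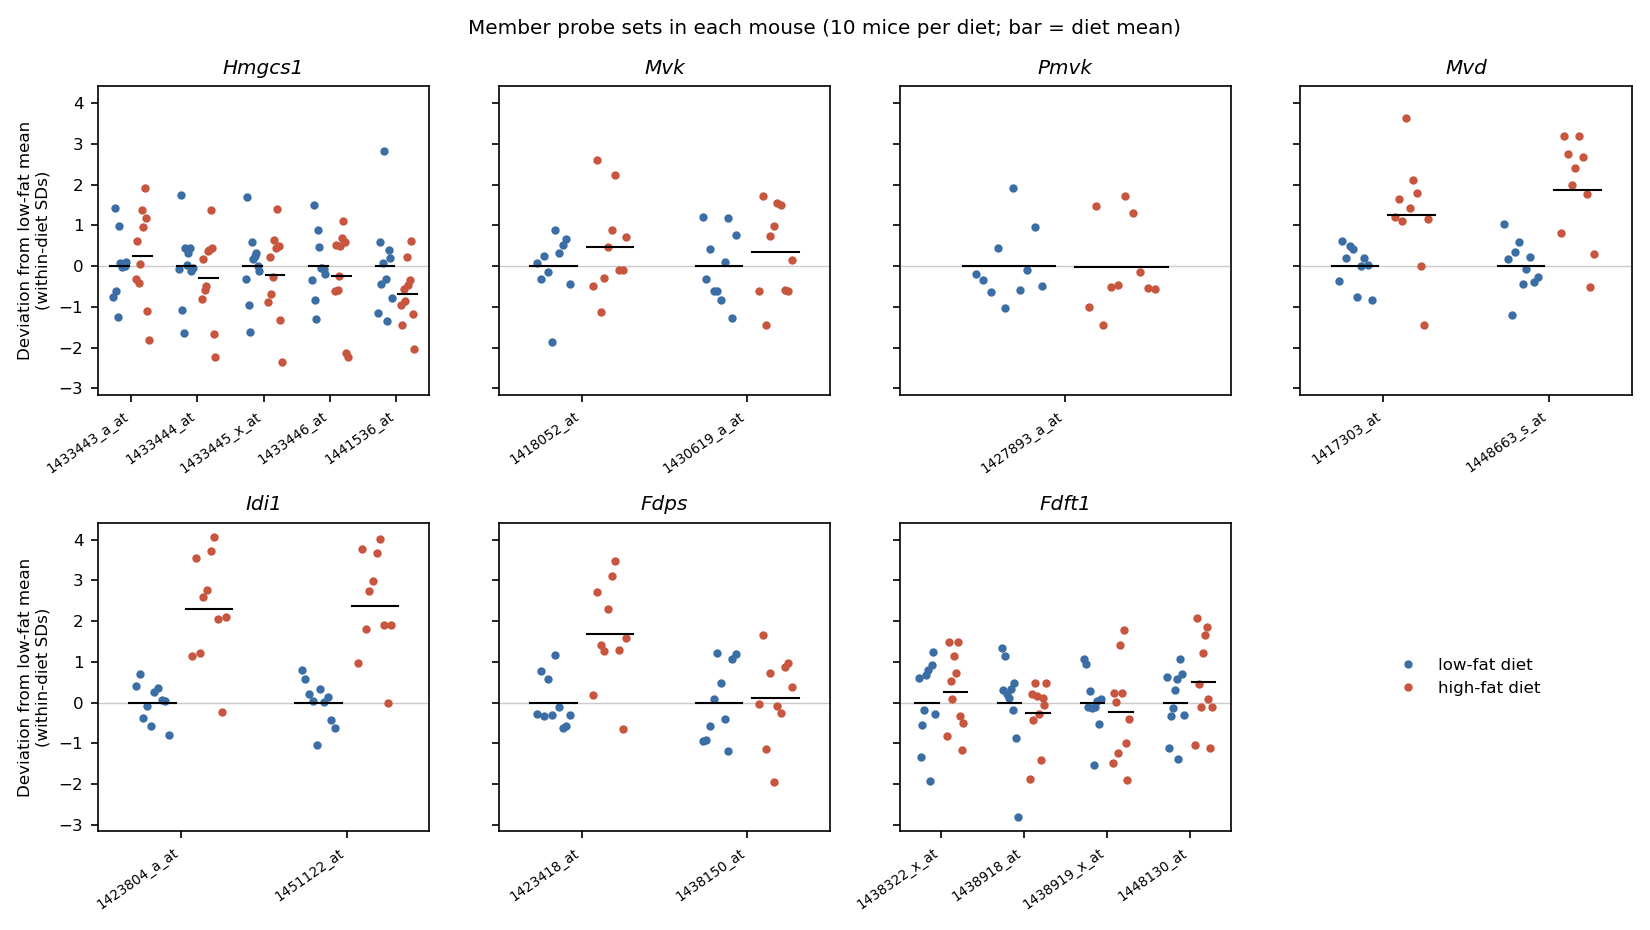
Deviation of each mouse from the low-fat mean, in within-diet SDs (vertical axis), for the 18 member probe sets (horizontal axis, 1 panel a gene); each point is 1 of 10 mice per diet and bars are diet means. In both Idi1 probe sets 9 high-fat mice lie above all low-fat mice, whereas the diets overlap widely in Hmgcs1, Mvk, Pmvk and Fdft1.

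The RefSeq promoter table (build GRCm38.p6) held 5 of the 7 genes, and Fdps and Fdft1 were not matched. The 250 bases before the annotated start are shown for Idi1 (chr13:8885356-8885605, + strand) and Mvd (chr8:122443423-122443672, - strand), which have probe sets that passed, and for Hmgcs1 (chr13:119690101-119690350, + strand), which has none. They are written 5′ to 3′ towards the start site. Capitals mark matches on either strand to the sterol regulatory element core TCACNCCAC, the CCAAT box CCAAT, the GC box GGGCGG or the E-box CACGTG.
Idi1: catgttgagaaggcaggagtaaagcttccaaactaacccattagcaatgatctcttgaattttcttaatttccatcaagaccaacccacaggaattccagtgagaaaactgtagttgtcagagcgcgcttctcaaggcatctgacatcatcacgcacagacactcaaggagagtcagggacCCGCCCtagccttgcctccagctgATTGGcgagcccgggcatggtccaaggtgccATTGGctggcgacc
Mvd: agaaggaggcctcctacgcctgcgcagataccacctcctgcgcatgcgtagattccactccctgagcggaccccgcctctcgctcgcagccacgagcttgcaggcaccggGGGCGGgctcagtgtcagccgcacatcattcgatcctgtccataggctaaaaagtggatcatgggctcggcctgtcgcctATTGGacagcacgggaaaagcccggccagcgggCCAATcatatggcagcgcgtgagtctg
Hmgcs1: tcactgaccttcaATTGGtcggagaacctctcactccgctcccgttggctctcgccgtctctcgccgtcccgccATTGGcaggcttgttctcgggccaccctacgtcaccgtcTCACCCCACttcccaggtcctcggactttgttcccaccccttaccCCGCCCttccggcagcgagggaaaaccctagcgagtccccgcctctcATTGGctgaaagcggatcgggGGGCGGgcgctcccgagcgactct
The 3 sequences share the CCAAT box, with 2 matches in Idi1, 2 in Mvd and 3 in Hmgcs1, and the GC box, with 1, 1 and 2 matches. Hmgcs1 alone of the 5 matched genes held the sterol element core, at 137 to 129 bases before the start. Mvk held 5 CCAAT boxes and 2 GC boxes, and of the 2 promoters listed for Pmvk 1 held a single CCAAT box. No match overlapped another and the E-box was found in none of them. Among 32851 promoter windows of the same length, 1.05% held the sterol core, 33.8% the CCAAT box, 32.7% the GC box and 6.02% the E-box. For 2 or more matches the shares were 10.1% for the CCAAT box and 16.7% for the GC box. A match describes letters only.

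Hmgcs1, the cytosolic HMG-CoA synthase and the earliest of the members along the route, gave no difference that passed in any of its 5 probe sets. For 1433445_x_at, the one with the highest mean, low-fat mice ran from -1.61 through a median of 0.09 to 1.70 SD, and high-fat mice from -2.35 through -0.03 to 1.39 SD. The diets overlapped almost completely, and the high-fat mouse was higher in 48 of 100 pairs. Its standardised difference was -0.23 (95% interval -1.11 to 0.65, adjusted p = 0.858). The others stood at 0.24 (1433443_a_at), -0.30 (1433444_at), -0.24 (1433446_at) and -0.70 (1441536_at, 95% interval -1.59 to 0.22), with adjusted p-values from 0.490 to 0.851. The first 4 Hmgcs1 probe sets followed each other closely among mice (Pearson's r of the deviations from the diet means 0.945 to 0.989), whereas 1441536_at, which lay at 5.73, below the array median, tracked them less (r from 0.435 to 0.605).

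Mvk and Pmvk encode the pair of kinases that phosphorylate mevalonate in turn. In Mvk 1418052_at low-fat mice ran from -1.85 through 0.17 to 0.89 SD and high-fat mice from -1.12 through 0.19 to 2.61 SD. Here 2 high-fat mice exceeded every low-fat mouse while the medians were nearly equal. The standardised difference was 0.48 (95% interval -0.42 to 1.36, adjusted p = 0.665), and that of 1430619_a_at was 0.34 (-0.55 to 1.22, adjusted p = 0.779). In Pmvk 1427893_a_at low-fat mice ran from -1.02 through -0.26 to 1.92 SD and high-fat mice from -1.44 through -0.50 to 1.72 SD. The groups overlapped throughout, with the high-fat mouse higher in 47 of 100 pairs, and the standardised difference was -0.02 (95% interval -0.90 to 0.86, adjusted p = 0.990). These intervals still hold differences of 1.36 SD in Mvk 1418052_at and of -0.90 SD in Pmvk.

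Mvd encodes the decarboxylase that makes isopentenyl diphosphate. In 1448663_s_at low-fat mice ran from -1.20 through 0.06 to 1.04 SD and high-fat mice from -0.51 through 2.19 to 3.20 SD. Of the high-fat mice 7 lay above every low-fat mouse, and the standardised difference was 1.86 (95% interval 0.78 to 2.90, adjusted p = 0.0296, high-fat mouse higher in 87 of 100 pairs). The suffix of this probe set marks probes that may be shared with other transcripts, and it lay at 6.54, below the array median. The other Mvd probe set, 1417303_at, ran from -0.84 through 0.11 to 0.61 SD in low-fat mice and from -1.44 through 1.32 to 3.63 SD in high-fat mice. There 8 high-fat mice lay above all low-fat mice and 1 lay below them all, and the difference of 1.26 (0.28 to 2.21) did not pass (adjusted p = 0.152). The call of 1448663_s_at was lost after quantile normalisation (0.99, adjusted p = 0.149), after centring arrays on their medians (-0.11, adjusted p = 0.819), with the spike-in covariate (adjusted p = 0.0905), with the rank sum test (adjusted p = 0.101), and on leaving out any 1 of low-fat replicates 6 and 9 and high-fat replicates 5, 6 and 7 (adjusted p up to 0.0546). Without high-fat replicate 9 both Mvd probe sets passed (adjusted p = 0.0260 for 1417303_at and 0.00638 for 1448663_s_at).

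Idi1 encodes the isomerase that turns isopentenyl diphosphate into dimethylallyl diphosphate, so that both building blocks of farnesyl diphosphate are present. In 1451122_at low-fat mice ran from -1.04 through 0.09 to 0.79 SD and high-fat mice from -0.02 through 2.33 to 4.01 SD. All high-fat mice but 1 lay above all low-fat mice. The deposited score was 7.28 ± 0.0187 on the low-fat and 7.36 ± 0.0435 on the high-fat diet (mean ± SD, n = 10 mice each). The difference came to 2.37 SD (95% interval 1.19 to 3.52, adjusted p = 0.00657). In 1423804_a_at low-fat mice ran from -0.79 through 0.05 to 0.70 SD and high-fat mice from -0.22 through 2.34 to 4.08 SD. Again 9 high-fat mice lay above all low-fat mice, and the score rose from 6.22 ± 0.0252 to 6.35 ± 0.0720 (standardised difference 2.30, 95% interval 1.13 to 3.43, adjusted p = 0.00826). Both of these means lay below the array median. For each probe set 93 of 100 pairs had the high-fat mouse higher, and the 2 followed each other among mice of a diet (r = 0.954). Both kept their direction and passed in all alternatives that held them, array scalings and the 20 fits without 1 array included, with the highest adjusted p at 0.0414 for 1423804_a_at and 0.0337 for 1451122_at.

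Fdps encodes farnesyl diphosphate synthase. In 1423418_at low-fat mice ran from -0.62 through -0.29 to 1.16 SD and high-fat mice from -0.64 through 1.504 to 3.47 SD. Of the high-fat mice 8 lay above all low-fat mice, and the high-fat mouse was higher in 87 of 100 pairs. The standardised difference was 1.67 (95% interval 0.63 to 2.69, adjusted p = 0.0505), which did not pass. It passed when the test was run on 1 probe set a gene, where 3.49% of 18193 genes passed, 1.71% as higher (adjusted p = 0.0397), on the probe sets with means above the middle one (adjusted p = 0.0314), after each of the 3 array scalings (adjusted p from 0.00869 to 0.0264), and without low-fat replicate 6 (adjusted p = 0.0439), high-fat replicate 1 (adjusted p = 0.0348) or high-fat replicate 9 (adjusted p = 0.0126). In 6 alternatives that kept all arrays 1423418_at did not pass, the spike-in covariate and the rank sum test among them (adjusted p up to 0.133). It also missed the threshold in 17 of the 20 fits without 1 array (limma adjusted p up to 0.088). The other Fdps probe set, 1438150_at, lay at 5.62, below the array median, and stood at 0.11 (-0.77 to 0.99, adjusted p = 0.943). It did not follow 1423418_at among mice of a diet (r = -0.162).

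Fdft1 encodes squalene synthase, the branch point into sterols. In 1438322_x_at low-fat mice ran from -1.93 through 0.21 to 1.25 SD and high-fat mice from -1.16 through 0.30 to 1.49 SD. In 1448130_at they ran from -1.40 through 0.09 to 1.07 SD and from -1.12 through 0.27 to 2.08 SD. The diets overlapped in both, and the standardised differences were 0.26 (95% interval -0.62 to 1.14, adjusted p = 0.834) and 0.50 (-0.40 to 1.38, adjusted p = 0.649). These 2 probe sets followed each other among mice (r = 0.942). The remaining Fdft1 probe sets, 1438918_at and 1438919_x_at, lay below the array median and stood at -0.26 and -0.23 (adjusted p = 0.841 and 0.861).

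**Figure D2:**
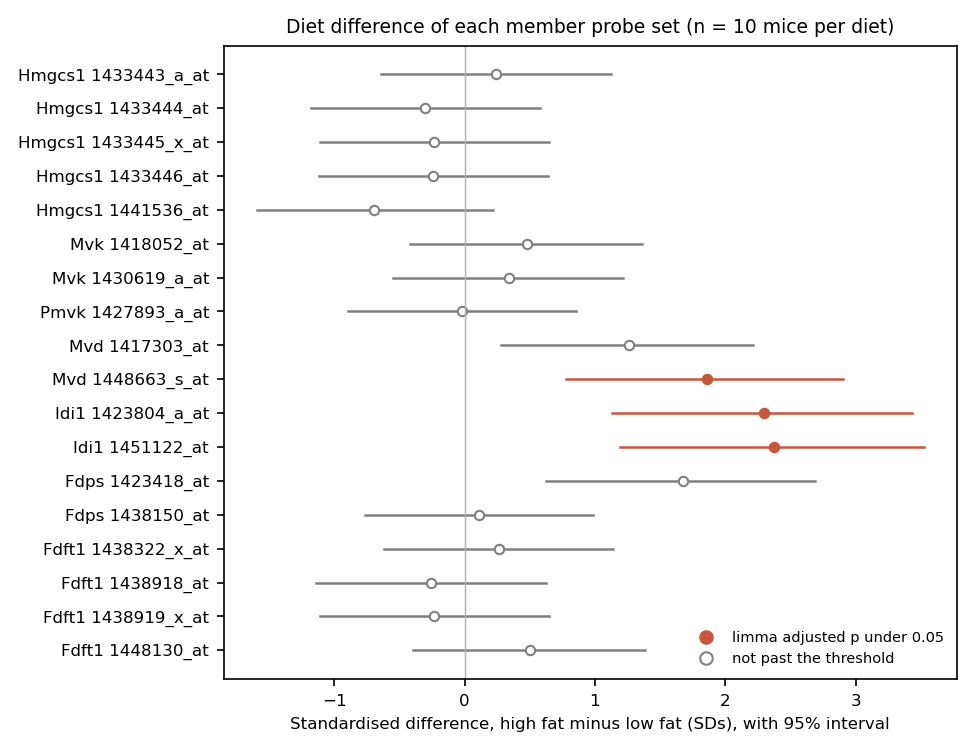
Standardised difference between diets (horizontal axis, within-diet SDs, high fat minus low fat) with its 95% noncentral t interval for each of the 18 member probe sets (vertical axis), n = 10 mice per diet; filled points passed limma's adjusted p of 0.05. The 3 filled points are Mvd 1448663_s_at and both Idi1 probe sets, and the Fdps point at 1.67 is open.

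Whether members differed from each other in their response was tested on ranks over the 20 mice, with 1 probe set a gene (the one with the highest mean). The difference of the ranks of 2 genes in a mouse was compared between diets by permuting the diet labels (two-sided, 100000 resamples), adjusted over the 21 pairs. Of these pairs 6 passed, and all 6 set Idi1 or Fdps against Hmgcs1, Mvk, Pmvk or Fdft1. Fdps itself had no call. Idi1 gained 9.2 ranks more than Pmvk (adjusted p = 0.029), 9 ranks more than Hmgcs1 (adjusted p = 0.0339), 7.4 more than Fdft1 (adjusted p = 0.0418) and 7 more than Mvk (adjusted p = 0.0418). Fdps gained 8 ranks more than Pmvk and 7.8 more than Hmgcs1 (adjusted p = 0.0418 for both). Mvd, represented here by 1417303_at, differed from no other member past the threshold, and Idi1 and Fdps differed by 1.2 ranks (adjusted p = 0.572). The differences of Idi1 from Hmgcs1 and from Pmvk passed in 19 of 23 alternatives each, the highest adjusted p being 0.0963 for both, and the other 4 passed in 10 to 12 of 23. The 4 fits without high-fat replicate 1, 3, 4 or 10 left 0 pairs past the threshold, and other arrays that lowered the count are given in the closing section.

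The SD over high-fat mice exceeded that over low-fat mice in 15 of 18 member probe sets, as it did in 49.4% of all probe sets. Among the 15 were genes without a call for diet, with ratios of 1.19 to 1.49 in the first 4 Hmgcs1 probe sets, 1.28 and 1.52 in Mvk and 1.26 in Pmvk. The SD on the high-fat diet was 2.86 and 2.32 times that on the low-fat diet for the Idi1 probe sets 1423804_a_at and 1451122_at, 2.63 and 2.05 times for Mvd 1417303_at and 1448663_s_at, and 2.09 times for Fdps 1423418_at. These 5 of 18 member probe sets exceeded a ratio of 2, as did 3.09% of all probe sets, whose median ratio was 0.994. The ratio itself was not tested, and these genes were singled out after their values were seen. High-fat replicate 9 was the lowest high-fat mouse in 8 of the 18 probe sets, among them both of Idi1, both of Mvd and Fdps 1423418_at. High-fat replicate 7 was the highest in 9 of 18.

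The members also varied together in their deviations from the diet means, pooled over both diets. Pearson's r of these deviations was positive in all 21 pairs of genes, and 5 pairs passed a permutation within diets (100000 resamples, adjusted over the pairs). Among high-fat mice alone r was positive in every pair, the lowest being 0.199 for Mvk with Mvd. Among low-fat mice alone many pairs had a negative r, down to -0.375 for Pmvk with Mvd. Idi1 and Fdps had r = 0.869 (adjusted p = 0.00042) and Spearman's rho = 0.678 (adjusted p = 0.0267), and without the 2 mice farthest from the median of Idi1 r was 0.753 (permutation p = 0.00129). Within the diets r was 0.405 in low-fat and 0.965 in high-fat mice, a difference that was not tested. Mvk and Pmvk, the kinases, had r = 0.785 (adjusted p = 0.00063) and rho = 0.726 (adjusted p = 0.0149), with r = 0.746 without 2 mice, 0.666 in low-fat and 0.852 in high-fat mice. Mvk with Idi1 (r = 0.669, rho = 0.641), Pmvk with Fdps (r = 0.663, rho = 0.495) and Pmvk with Idi1 (r = 0.604, rho = 0.650) followed, with adjusted p-values of 0.0203, 0.0196 and 0.0376 for r and 0.0267, 0.0747 and 0.0267 for rho. Without the 2 farthest mice on the first gene their r was 0.583, 0.546 and 0.587. Thus Mvk and Pmvk, which had no call for diet, moved with Idi1 from mouse to mouse when both diets were pooled. Within the diets r with Idi1 was 0.571 in low-fat and 0.71 in high-fat mice for Mvk. For Pmvk it was 0.256 in low-fat and 0.753 in high-fat mice, and these differences were not tested. Hmgcs1 with Idi1 had r = 0.509 (adjusted p = 0.0654; rho = 0.525, adjusted p = 0.0747). Arrays also share technical variation, whose part in these relations was not tested. After quantile normalisation 1 of 21 pairs passed.

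**Figure D3:**
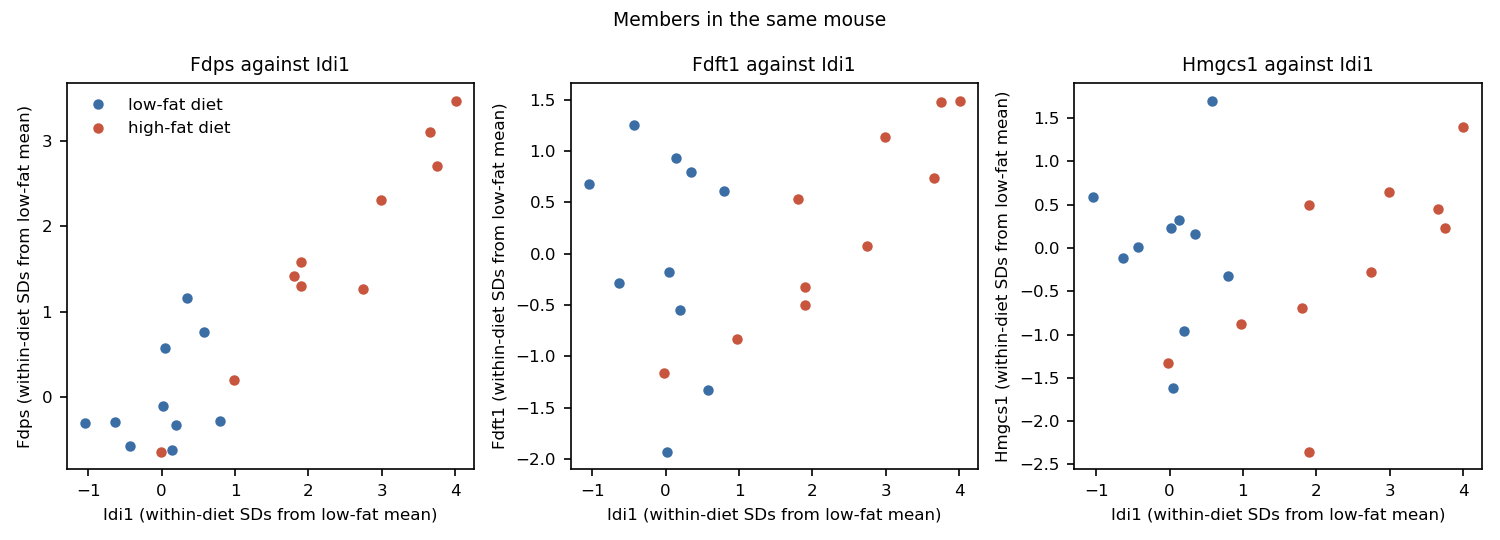
Fdps, Fdft1 and Hmgcs1 (vertical axes) against Idi1 (horizontal axis) in the same mouse, each in within-diet SDs from the low-fat mean; points are 10 mice per diet and genes are represented by the probe set with the highest mean. High-fat mice lie along a rising line in the Fdps panel (r = 0.965 within that diet), and Fdft1 (r = 0.910) and Hmgcs1 (r = 0.708) also rise with Idi1 among high-fat mice, within the range of the low-fat mice apart from 2 high-fat mice above it for Fdft1 and 1 below it for Hmgcs1. Among low-fat mice r with Idi1 was 0.405 for Fdps, -0.212 for Fdft1 and 0.00645 for Hmgcs1.

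**Figure D4:**
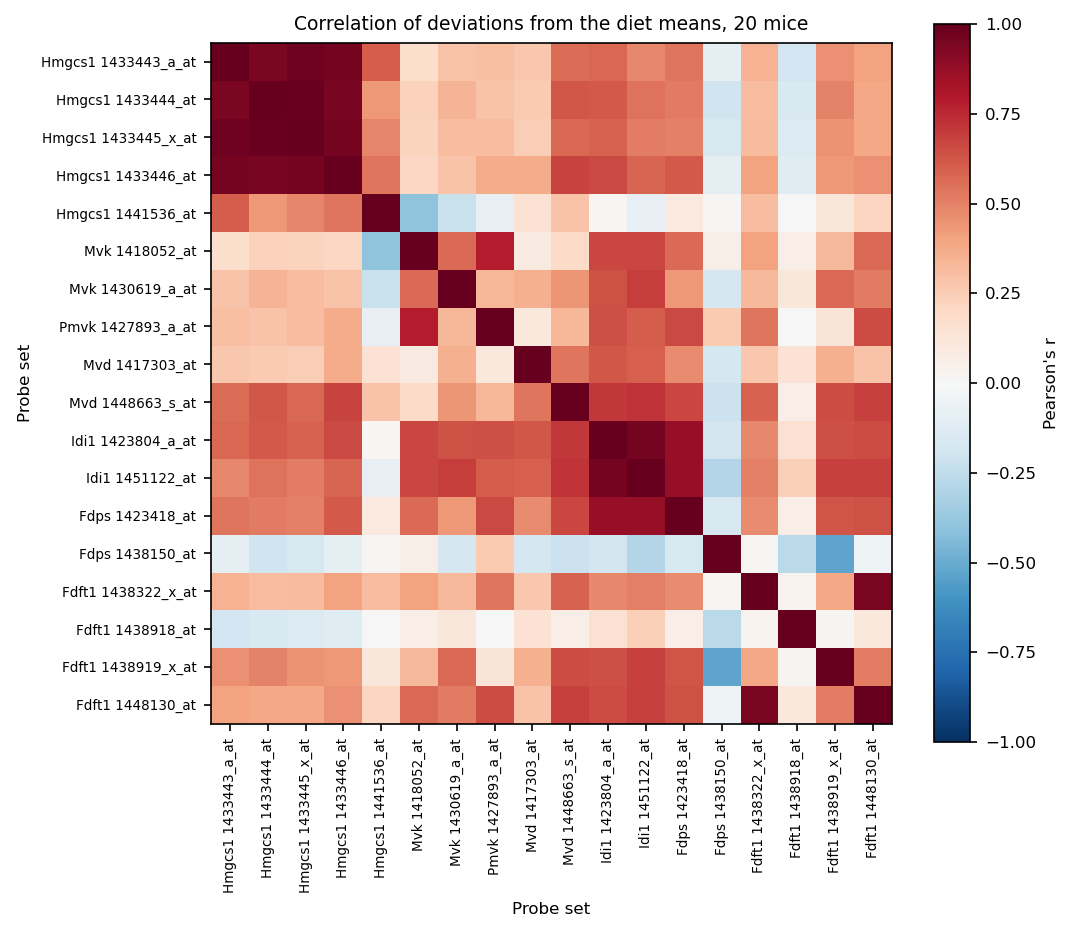
Pearson's r of the deviations from the diet means over 20 mice for each pair of the 18 member probe sets (both axes), on a colour scale from -1 to 1. The first 4 Hmgcs1 probe sets, both Idi1 probe sets with Fdps 1423418_at, and Fdft1 1438322_x_at with 1448130_at form dark blocks, while Fdps 1438150_at and Fdft1 1438918_at are pale or blue against most others.

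The 5 genes of 18186 outside the group whose deviations were most like the mean of the 7 members over the 20 mice were Nsdhl (r = 0.934, rho = 0.95), Sqle (r = 0.907, rho = 0.880), Msmo1 (r = 0.906, rho = 0.917), Ccdc25 (r = 0.894, rho = 0.869) and Tmem97 (r = 0.837, rho = 0.857). Nsdhl, Sqle and Msmo1 encode enzymes of the later sterol steps. These genes were picked for the likeness, so it carries no test. Their diet differences were 1.46 (adjusted p = 0.088), 2.06 (adjusted p = 0.0164), 2.42 (adjusted p = 0.00585), 0.96 (adjusted p = 0.304) and 1.00 (adjusted p = 0.277).

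Of the rest of the pathway, 30 of 37 listed genes had a named probe set and the others were not analysed here; 5 rose and 0 fell on the deposited scale. This is 16.7%, against 3.00% of the 18193 genes by the same choice of 1 probe set a gene, 1.49% as higher. After centring arrays on their medians 9 of the 30 passed as higher and 13 as lower. Of all 45037 probe sets 396 passed as higher and 38220 as lower under that scaling. All 5 genes that rose on the deposited scale belonged to the steps from squalene to cholesterol. They were the squalene epoxidase gene Sqle (2.06), the lanosterol synthase gene Lss (2.36), the demethylase gene Cyp51 (2.40), the methyl oxidase gene Msmo1 (2.42) and the ketoreductase gene Hsd17b7 (2.15). In these steps 11 of 11 measured genes had a positive difference (median 1.46), as had 9547 of the 18193 genes. Over all 21 probe sets of these 11 genes 8 rose and 0 fell, against 501 and 542 of all 45037 probe sets. In Lss only 1420013_s_at passed, and 1420014_at (1.46, adjusted p = 0.129) and 1426913_at (1.00, adjusted p = 0.276) did not. The suffixes of Lss 1420013_s_at and Hsd17b7 1457248_x_at mark probes that may be shared with other transcripts. Hsd17b7 1417871_at also passed (1.75, adjusted p = 0.0412), whereas 1448865_at (1.61, adjusted p = 0.0611) and 1440057_at (0.42, adjusted p = 0.724) did not. The other Msmo1 probe set, 1459627_at, did not pass either (0.07, adjusted p = 0.962). Sqle lost its call with the spike-in covariate (adjusted p = 0.0633) and Hsd17b7 after quantile normalisation (0.81, adjusted p = 0.229). Among enzymes supplying acetyl-CoA, Acss2 stood at -0.38 and the citrate lyase gene Acly at -0.51, and neither passed.

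Of the branches that draw on isoprenoids 0 of 8 genes passed, beside 3.00% of the 18193 genes by the same choice of probe set. Nus1, part of the enzyme that makes dolichol precursors, stood at 1.52 (95% interval 0.50 to 2.51, adjusted p = 0.0764), its partner Dhdds at 1.10 (adjusted p = 0.225), and Ggps1, which makes geranylgeranyl diphosphate, at 0.79 (adjusted p = 0.430). On the negative side stood Pdss2 of ubiquinone side chain synthesis (-0.82), the farnesyltransferase subunit gene Fnta (-0.44) and Coq2 of ubiquinone synthesis (-0.42). Another Dhdds probe set, 1422548_at, stood at -1.21 (adjusted p = 0.182), and the other Nus1 probe sets ran from -0.27 to 0.64. Of sterol sensing and uptake 0 of 8 passed, and a count of 0 in 8 genes is near the share over all genes. There the SREBP escort gene Scap stood at 1.24 (0.26 to 2.19, adjusted p = 0.160), the sterol carrier gene Stard4 at 1.21 (0.24 to 2.16, adjusted p = 0.169), Insig1, which holds SREBP in the endoplasmic reticulum, at 1.05 (0.10 to 1.98, adjusted p = 0.247), and Srebf2, which encodes SREBP-2, at 0.25 (-0.63 to 1.13, adjusted p = 0.846). The other Srebf2 probe set, 1426744_at, stood at 1.07 (0.11 to 2.00, adjusted p = 0.240). Idi2, the paralogue of Idi1, stood at -0.13 (-1.01 to 0.75, adjusted p = 0.926).

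**Figure D5:**
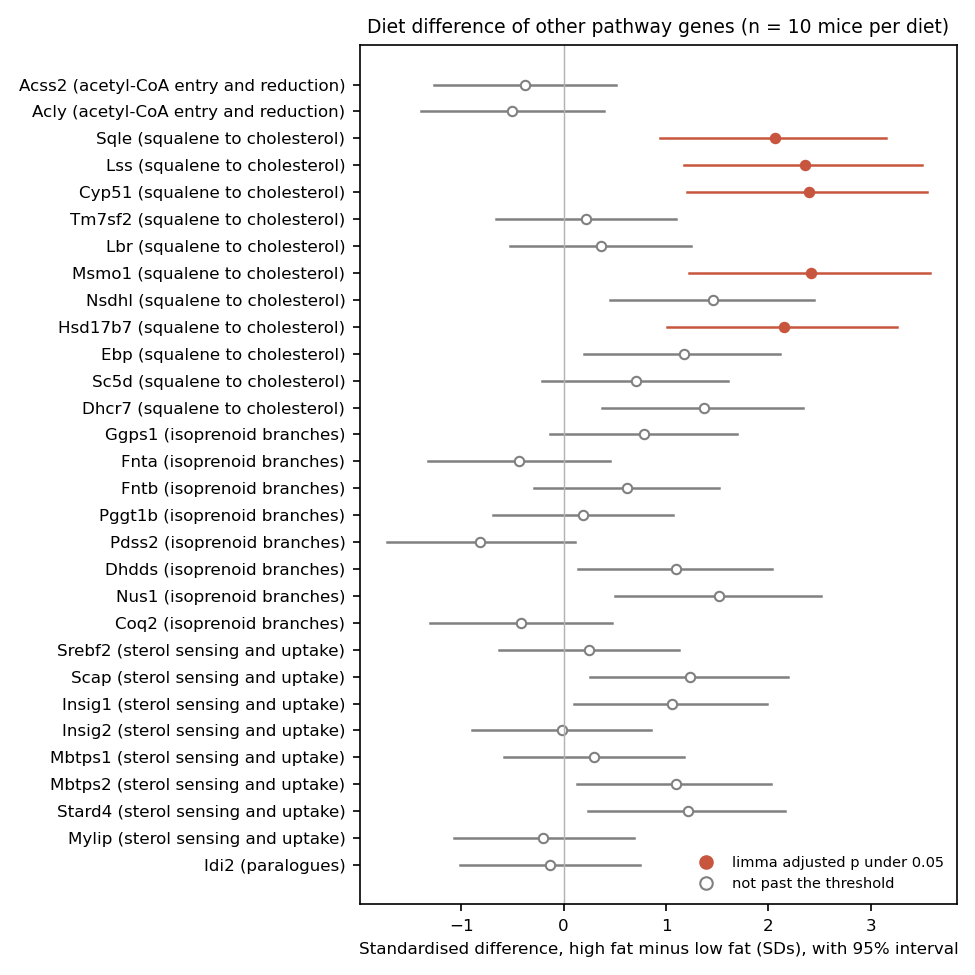
Standardised difference between diets (horizontal axis, within-diet SDs, high fat minus low fat) with its 95% interval for 30 other genes of cholesterol and isoprenoid metabolism (vertical axis, list in brackets), n = 10 mice per diet; filled points passed limma's adjusted p of 0.05. The 5 filled points, from 2.06 to 2.42, all lie in the steps from squalene to cholesterol.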

How the data were processed

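Liver RNA of 20 mice was measured on 1 Affymetrix array each, after labelling with a 3′ kit per the labels' protocols. The authors deposited 1 score per probe set and array; how probes were summarised and normalised was not given in the sources used here. Scores ran from 5.18 to 15.00 with very unequal spread, and the file held 0 columns of other samples.

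Of 45037 probe sets that are not controls, 34945 had 1 gene symbol, 932 had several and were not named, and 9160 are unnamed here; the tests did not include the 64 controls. Gene IDs linked 34741 of the first kind to RefSeq (GRCm38.p6), with 0 symbols differing. The diet effect was fitted by limma 3.58.1 under R 4.3.3 (lmFit, then eBayes; two-sided tests without covariates or filters; prior 0.778 degrees of freedom; threshold 0.05). The number of arrays limits the precision. Members, lists and tests were chosen with earlier results of these data known. Every member probe set is reported, and of the other lists each gene past the threshold; all other named genes, except the most alike, were chosen after their values were seen. Same-numbered mice were checked for pairing. Alternatives were array scalings, a filter, other variance models, array weights, a replicate block, a spike-in covariate, other probe set choices, the exact Wilcoxon rank sum test (null distribution without ties) and omission of each array; those for pair tests were added after seeing the data.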

Additional observations from a re-analysis of the deposited data

Results flagged for a closer look

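In a gap test on single mice, run in 36 groups of 10 mice (18 member probe sets in each diet), 2 groups held 1 mouse well apart; about 1 group in 20 is picked out by chance. In Hmgcs1 1441536_at low-fat replicate 5 lay above all others, with a gap of 0.534 of the range; the standardised difference without this mouse was -0.52 (limma adjusted p = 0.654). In Mvk 1418052_at the same mouse lay below the rest (0.517), and without it the difference was 0.30, which did not pass.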

How the results depend on the processing

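Idi1 1451122_at passed under every alternative run, and Idi1 1423804_a_at under all except the fits on probe sets with higher means and on 1 probe set a gene, which did not include it. Of member probe sets, 8 passed after centring arrays on their medians (3 higher, 5 lower), and 2 to 5 without 1 array. Median centring shifted the median standardised difference of all probe sets from 0.04 to -1.29 and quantile normalisation to -0.41, and 22 other pathway genes passed under the former (9 higher, 13 lower), 8 after centring on standardised values, 3 without cross-hybridising probe sets, and 5 to 6 without 1 array. Over all probe sets 1043 passed (501 higher, 542 lower), 4164 after quantile normalisation (380 higher), 38616 after median centring (396 higher), 2516 after centring on standardised values, 567 with the spike-in covariate, 635 with 1 probe set a gene, and 768 to 1124 without 1 array. Pairs of members that differed numbered 0 to 7 without 1 array: 0 without high-fat replicate 1, 3, 4 or 10, 2 on omitting any 1 of low-fat replicates 1, 6, 8, 9 and 10 and high-fat replicates 5 and 6, and 3 without low-fat replicate 5. Correlated pairs numbered 1 after quantile normalisation and 2 to 10 without 1 array, the extremes being high-fat replicate 7 (2) and low-fat replicates 2 and 5 (10 each); 3 passed without low-fat replicate 6 or high-fat replicate 2, and 8 without low-fat replicate 8 or 9.

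Signs turned after median centring for Mvk 1418052_at (-0.79) and 1430619_a_at (-1.07, a call), Mvd 1417303_at (-0.895) and 1448663_s_at (-0.11) and Fdps 1438150_at (-1.33, a call), and after quantile normalisation for Hmgcs1 1433446_at (0.175) and Mvk 1430619_a_at (-0.67). Hmgcs1 1433443_a_at turned with the spike-in covariate (-0.0656) and Pmvk with array weights (0.0373). Without 1 array, Pmvk ran from -0.23 to 0.21, Hmgcs1 1433445_x_at from -0.44 to 0.00444 and Fdps 1438150_at from -0.0612 to 0.387. The cause of these changes was not tested. Quantile normalisation left 2676 probe sets constant, 1 of them a member.

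The replicate numbers did not pair the mice: same-numbered mice had correlations of -0.146 to 0.23, 2 of 10 pairs were over 0.1, and 2 low-fat mice correlated best with their own number. With the number as a replicate block 538 probe sets passed; Mvd 1448663_s_at did not (adjusted p = 0.0857) and Fdps 1423418_at did (adjusted p = 0.0430).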
